A study of Rattus norvegicus with 6 samples.

Results

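Collagens, laminins and integrins were represented by 79 genes of the 30076 gene symbols in 6 RNA-seq libraries of rat brain. The members are all symbols that begin with Col, a type number and a chain number, with Lama, Lamb or Lamc, or with Itga or Itgb, and that stand alone in a row of at least 1 library. They comprised 40 collagen chains, 10 laminin chains, 17 integrin alpha subunits and 8 integrin beta subunits. The pattern also took in 4 genes that encode no subunit, namely Itgb1bp1, Itgb1bp2, Itgb3bp and Itgbl1. The choice went by name, and it was made with earlier results of these data known.

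The manipulated group was 3 male F344 rats, 18 months old, that had cranial osteopathic manipulation (COM, a manual treatment of the head) on 7 days under 1.5 to 3% isoflurane. The untreated group was 3 male F344 rats of the same age that were anaesthetised as well. Each rat gave 1 library, named here manipulated replicates 4, 5 and 6 and untreated replicates 1, 2 and 3. The tissue was a coronal slab of 1 mm labelled prefrontal cortex. The comparison asks which genes differ in level between aged rats with and without the manipulation.

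Collagens and laminins are secreted proteins that assemble into the extracellular matrix. Type IV collagen and laminin networks form the basement membrane around brain vessels and under the meninges, while fibril-forming collagens make up the stiffer matrix of connective tissue. Integrins are receptors made of an alpha and a beta subunit that bind these proteins outside the cell and link them to the actin cytoskeleton inside it. Healthy brain parenchyma holds little fibrillar collagen, and much of its collagen and laminin RNA comes from endothelial, mural and fibroblast-like cells, whereas microglia, astrocytes and neurons carry integrins.

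Levels are in FPKM (fragments per kilobase of transcript, scaled to the mapped fragments of the library), which is scaled by gene length and so can be compared between genes. Of the 79 members, 26 averaged at least 1 FPKM over the 6 libraries and were tested, 49 averaged less, and 4 shared a row with a neighbouring gene in some library. The implied fragment number, an estimate of depth from the deposited intervals, was 3.45e+07 to 4.39e+07 in manipulated and 3.58e+07 to 3.97e+07 in untreated libraries. The deposited values differ in scale between libraries: the median log2 fold change (manipulated minus untreated) of all 10657 tested genes was -0.36, and it was -0.0037 after median-ratio scaling, which divides each library by a size factor. The factors for manipulated replicates 4, 5 and 6 were 0.947, 0.995 and 0.647, against 1.32, 0.954 and 1.25 for untreated replicates 1, 2 and 3. Both scales are given below, since the direction of many members depends on the choice.

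The levels of markers of brain regions also differed between the groups. The summed FPKM of 10 measured markers of thalamic and hypothalamic neurons was 14.8 to 19.3 in manipulated and 114 to 168 in untreated libraries, and 7 of 9 tested markers fell by limma with Benjamini-Hochberg adjustment. For 10 striatal markers it was 78.7 to 202 in manipulated and 45.7 to 70.4 in untreated libraries, and for 9 markers of cortical glutamatergic neurons 219 to 383 in manipulated and 258 to 328 in untreated libraries. After median-ratio scaling the thalamic and hypothalamic sums were 19.0 to 22.8 in manipulated and 86.4 to 140 in untreated libraries. The scaled striatal sums were 122 to 203 in manipulated and 36.6 to 56.3 in untreated libraries. The scaled cortical sums were 303 to 385 in manipulated and 247 to 271 in untreated libraries. Nrgn, at a mean of 188 FPKM over the 6 libraries, held the largest part of the cortical sum. The 9 cortical markers did not move together: after scaling 3 had a log2 fold change below 0 and 6 above. No measured marker of these lists was at 0 throughout. The part of this difference in the results below was not tested. Marker sums of thalamic, hypothalamic and striatal neurons separate with the groups, so the make-up of the slabs cannot be told apart from the manipulation. In bulk tissue fewer cells of a type and less RNA per cell cannot be told apart either.

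No collagen, laminin or integrin gene passed an adjusted p of 0.05 in either direction, against a background of 0.357 percent of all tested genes (9 higher and 29 lower). The smallest adjusted p among the members was 0.309 by limma with Benjamini-Hochberg adjustment, for Col11a2. In simulated data of this size the same test recovered 14.2% of genes given a log2 fold change of 1 and 73% of those given 2, so a difference of the size seen here would mostly be missed. At an unadjusted p under 0.05, 3 members were lower in manipulated libraries (Col11a2, Col25a1 and Col9a3), or 3 of 26 beside 13.6 percent of all tested genes, and 0 were higher beside 1.46 percent.

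On the deposited scale, 19 of the 26 tested members had a log2 fold change below 0, with a median of -0.22, against 87.0 percent of all tested genes and their median of -0.36. After median-ratio scaling 9 members were below 0 and 17 above, with a median of 0.13, against 50.7 percent of all genes below 0. At an unadjusted p under 0.05 on that scale, 2 members were higher (Col20a1 and Itgb2, beside 6.46 percent of all genes) and 0 lower (beside 4.80 percent). Col20a1 and Itgb2 averaged below 1 FPKM in untreated libraries (0.712 and 0.931 FPKM). They passed the filter only through the manipulated ones (1.365 and 1.157 FPKM). Col9a2, Col18a1 and Col19a1 passed it only through the untreated ones. The families did not sit alike after scaling. Of 11 tested collagens 7 stayed below 0 after scaling, with a median of -0.11, while all 9 tested integrin subunits were above 0, with a median of 0.29. With no filter on low values, 7 of 23 measured integrin subunits and 23 of 38 measured collagens were below 0 after scaling. The 3 tested laminins had a median of 0.07 after scaling. None of these medians was tested.

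**Figure D1:**
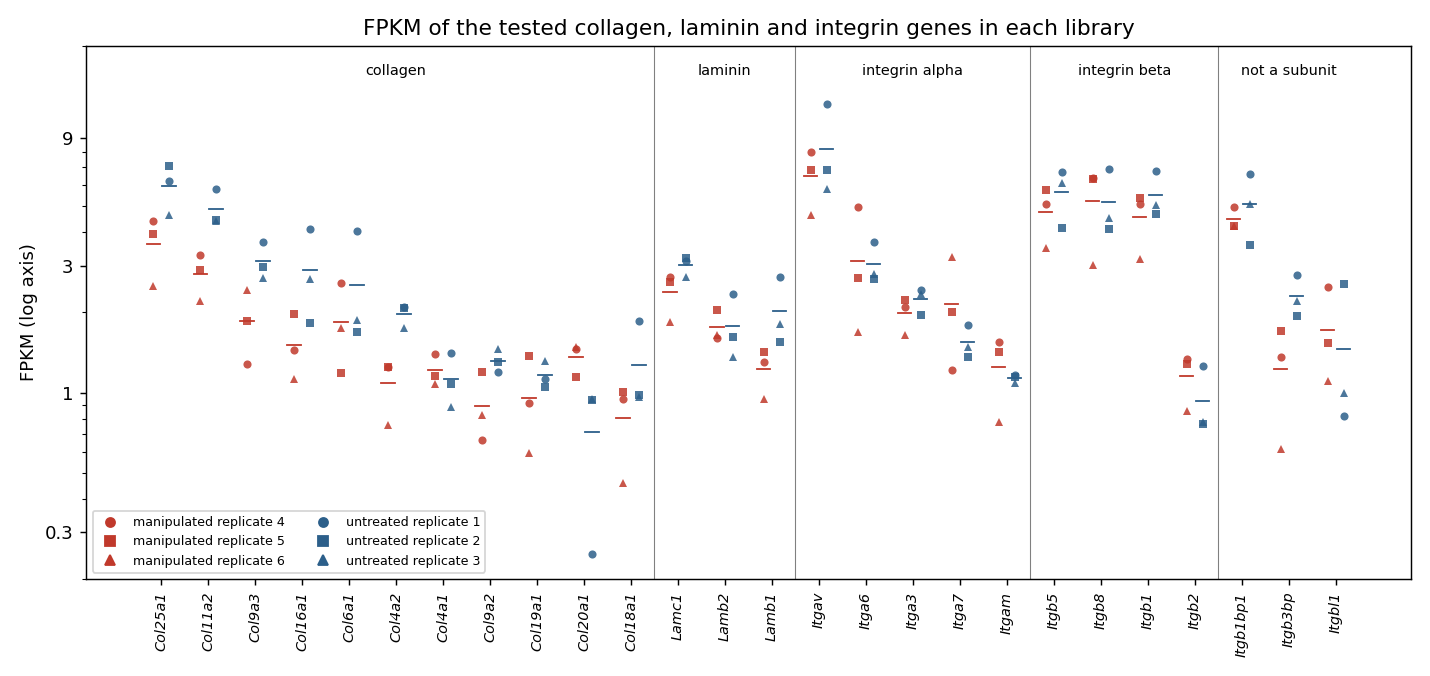
FPKM (log axis) of the 26 tested members in each library, grouped by family and ordered by mean level, with manipulated libraries in red and untreated ones in blue, and bars at the group means. Itgav, the member with the highest level at a mean of 7.36 FPKM over the 6 libraries, overlaps between the groups, while Col11a2 lies lower in all 3 manipulated libraries.

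The plot of values by library shows that the groups overlap in most members. The 3 manipulated libraries lay wholly above the 3 untreated ones in 1 tested member (Col20a1, beside 1.08 percent of all tested genes) and wholly below in 8 (beside 23.7 percent). The 8 were Col11a2, Col25a1, Col9a3, Col9a2, Col4a2, Lamb1, Lamc1 and Itgb3bp. After scaling, 5 members lay wholly above (Col20a1, Col4a1, Itga3, Itgb5 and Itgb2, beside 10.0 percent of all tested genes) and 3 wholly below (Col11a2, Col4a2 and Itgb3bp, beside 9.85 percent). Col20a1, Col11a2, Col4a2 and Itgb3bp were thus apart on both scales. Of these, Col20a1 passed the filter only through its manipulated libraries. Untreated replicate 1 held the highest value of 16 of the 26 tested members and manipulated replicate 6 the lowest of 16, against 45.0% and 73.4% of all tested genes.

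**Figure D2:**
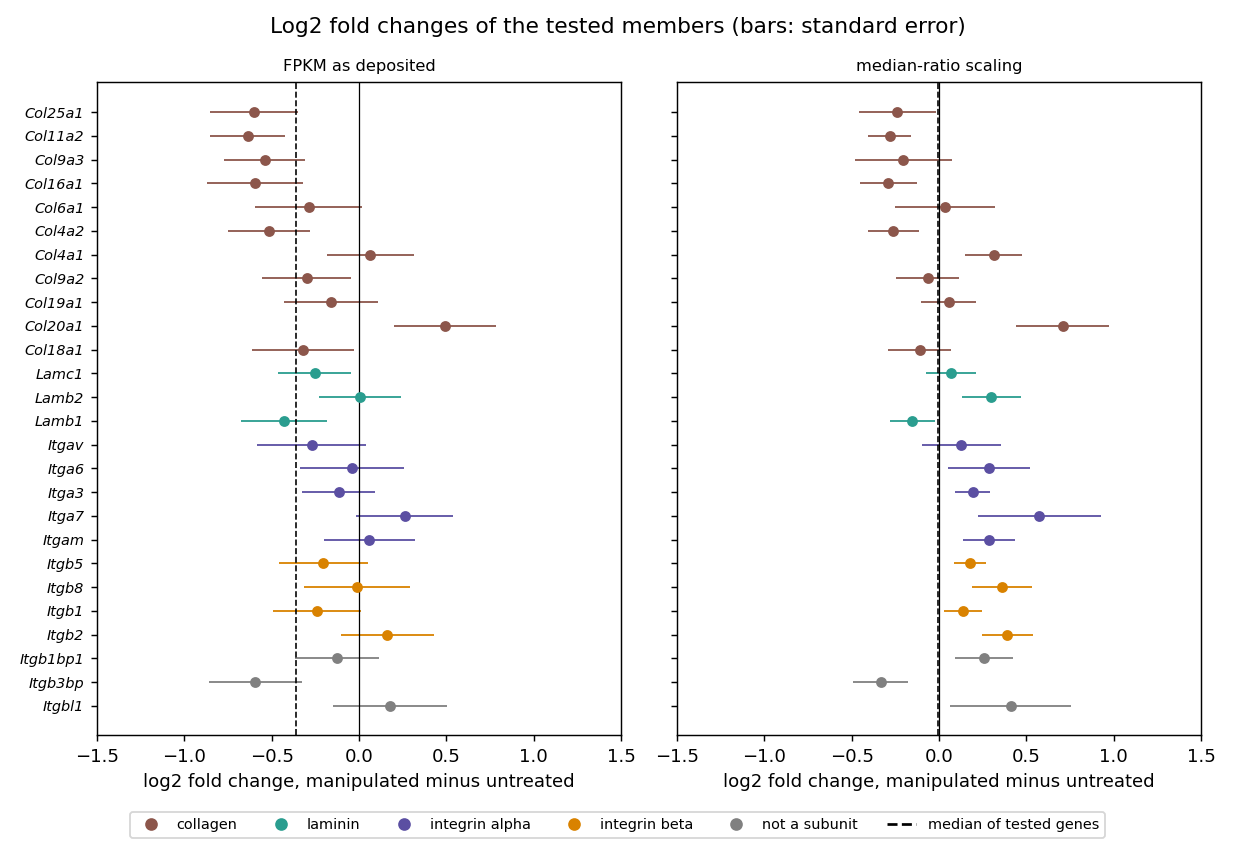
Log2 fold changes (manipulated minus untreated, on the log2(FPKM + 1) scale) of the 26 tested members, with bars of 1 standard error, on the deposited scale at the left and after median-ratio scaling at the right; the dashed line is the median of all tested genes. Tested integrins move from a median of -0.04 at the left to 0.29 at the right, and Col11a2 stays below 0 in both.

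Summed over each family, collagens came to 27.1, 27.3 and 22.6 FPKM in manipulated replicates 4, 5 and 6, against 46.0, 34.9 and 34.3 FPKM in untreated replicates 1, 2 and 3 (38 genes). All 3 manipulated sums were below all 3 untreated ones on the deposited scale, and the groups overlapped after scaling, at 28.7, 27.4 and 35.0 in manipulated and 34.8, 36.6 and 27.4 in untreated libraries. Laminin sums were 8.73, 9.06 and 7.07 FPKM in manipulated and 12.3, 8.87 and 9.12 FPKM in untreated libraries, which overlap. Integrin alpha subunits gave 19.5, 17.7 and 13.5 FPKM in manipulated and 24.7, 16.6 and 16.3 FPKM in untreated libraries. Integrin beta subunits gave 18.8, 19.8 and 11.2 FPKM in manipulated and 22.8, 14.4 and 17.0 FPKM in untreated libraries. The beta sums overlapped on the deposited scale and were apart after scaling, at 17.4 to 19.9 in manipulated and 13.6 to 17.2 in untreated libraries.

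**Figure D3:**
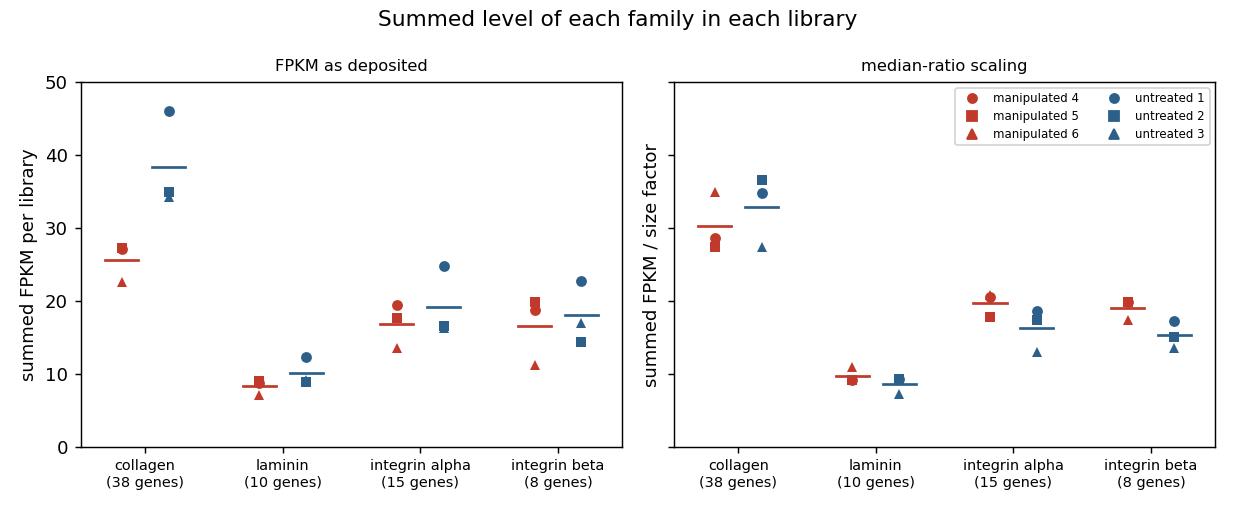
Summed level of each family per library, as deposited at the left (FPKM) and divided by the size factor at the right, with manipulated libraries in red, untreated ones in blue and bars at the group means. Collagen sums are apart at the left (22.6 to 27.3 in manipulated, 34.3 to 46.0 in untreated libraries) and overlap at the right.

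Type IV collagen is the network-forming collagen of basement membranes. Its 6 chains are encoded by 3 pairs of genes that lie head to head, and the chains of the first pair, Col4a1 and Col4a2, join in a trimer found in nearly all basement membranes. The bases just before each start are printed here because Col4a1 and Col4a2 share that stretch while the ratio of their levels was apart between groups, and the other pairs are set beside them. The sequences are RefSeq on the assembly GRCr8, each the 76 bases before the gene's start on the strand of that gene, and the capitals mark a GC box (GGGCGG, or CCGCCC on the other strand), the letters bound by Sp1-family factors.
Col4a1, chr16:84885521-84885596, plus strand: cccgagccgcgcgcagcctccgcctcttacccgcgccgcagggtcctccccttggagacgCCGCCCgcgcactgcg
Col4a2, chr16:84885521-84885596, minus strand: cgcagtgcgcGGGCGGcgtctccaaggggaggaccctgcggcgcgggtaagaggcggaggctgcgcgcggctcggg
Col4a3, chr9:91323914-91323989, plus strand: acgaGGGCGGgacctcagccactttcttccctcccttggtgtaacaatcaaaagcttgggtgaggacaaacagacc
Col4a4, chr9:91323578-91323653, minus strand: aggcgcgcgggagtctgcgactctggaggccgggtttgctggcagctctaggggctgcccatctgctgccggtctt
Col4a5, chrX:109907283-109907358, plus strand: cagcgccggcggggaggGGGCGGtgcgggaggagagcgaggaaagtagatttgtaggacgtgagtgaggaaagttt
Col4a6, chrX:109905945-109906020, minus strand: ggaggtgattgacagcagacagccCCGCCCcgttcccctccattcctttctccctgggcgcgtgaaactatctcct

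The 76 bases between the starts of Col4a1 and Col4a2 are 1 stretch read on opposite strands, so those 2 lines are reverse complements, and its GC content is 79.0%, against a median of 53.9% over all windows of that length. The starts of Col4a3 and Col4a4 lie 412 bases apart and those of Col4a5 and Col4a6 1414 bases apart. A GC box, searched on both strands, is in 5 of the 6 windows, where the box of the shared stretch counts for both Col4a1 and Col4a2. It is in 18.1% of the 33469 windows of that length in the table. The GC content of the other type IV windows is 53.95 to 68.42%, and the 2 shares were not compared at like GC content. A match describes the letters alone.

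Col4a1 (Rnor_6.0 chr16:83522162-83632153) had 1.40, 1.16 and 1.08 FPKM in manipulated replicates 4, 5 and 6, against 1.41, 1.07 and 0.880 FPKM in untreated replicates 1, 2 and 3. The groups overlap almost fully as deposited (log2 fold change 0.07 ± 0.25, SE, adjusted p = 0.859 by limma). After scaling Col4a1 lay wholly higher in manipulated libraries, at a log2 fold change of 0.31 (adjusted p = 0.509 by limma). Its neighbour Col4a2 (chr16:83386421-83522022) had 1.25, 1.25 and 0.759 FPKM in manipulated libraries, against 2.09, 2.07 and 1.74 FPKM in untreated libraries. Every manipulated library was below every untreated one. On the deposited scale the 95% intervals did not meet either (0.663 to 1.39 in manipulated, 1.55 to 2.27 in untreated libraries). They describe each library by itself and were not compared after scaling. The log2 fold change was -0.52 ± 0.23 with an adjusted p of 0.326 by limma as deposited and -0.26 with an adjusted p of 0.534 after scaling, so the difference did not pass the test over all genes.

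Within each library the ratio of Col4a1 to Col4a2 does not depend on scaling between libraries. It was 1.12, 0.927 and 1.43 in manipulated replicates 4, 5 and 6, against 0.676, 0.518 and 0.505 in untreated replicates 1, 2 and 3. All 3 manipulated ratios were above all 3 untreated ones, although the deposited Col4a1 interval was 0 to 2.20 FPKM in manipulated replicate 6 and 0.388 to 1.76 FPKM in untreated replicate 2, so those ratios are poorly determined. The ratios had means of 1.16 ± 0.252 in manipulated and 0.566 ± 0.0954 in untreated libraries (SD, n = 3 each). The difference of the mean log2 ratio was 1.02, and the exact two-sided permutation test gave p = 0.1, the smallest that 3 against 3 allows (0.3 after Benjamini-Hochberg adjustment over 3 ratios). These ratios were chosen after the values were seen. The assembled rows differ between libraries: the Col4a2 row of manipulated replicate 6 spans 52124 bases, against 134773 to 136205 in the other 5 libraries, and in the 3 untreated libraries alone it runs 355 to 499 bases into Col4a1. Without manipulated replicate 6 the difference of the log2 ratio was 0.86, and the part of the overlap was not tested.

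The other 4 chains averaged below 1 FPKM and were not in the main test. Col4a3 and Col4a4 encode chains that pair with the Col4a5 chain in kidney glomerulus. Col4a4 (chr9:88232424-88357195) had 0.281, 0.461 and 0.234 FPKM in manipulated libraries, against 0.820, 0.669 and 0.847 FPKM in untreated libraries, which do not overlap on either scale. With no filter on low values its adjusted p was 0.306 by limma, and 0.299 with median-ratio scaling as well. The deposited Col4a4 intervals spanned 0 to 5.91 FPKM over the manipulated libraries, so its level there is poorly determined. Col4a3 had 0.323, 0.210 and 0.161 FPKM in manipulated and 0.275, 0.424 and 0.655 FPKM in untreated libraries, which overlap. The deposited Col4a3 intervals spanned 0 to 39.0 FPKM over the untreated libraries, so its level there and its ratio to Col4a4 are poorly determined. The Col4a3 to Col4a4 ratio was 0.764 ± 0.351 in manipulated and 0.581 ± 0.224 in untreated libraries (SD, n = 3 each, exact permutation p = 0.5). Col4a5 had 0.461, 0.387 and 0.257 FPKM in manipulated and 0.440, 0.357 and 0.348 FPKM in untreated libraries, which overlap as deposited and lay wholly higher in manipulated libraries after scaling, at a log2 fold change of 0.10. Col4a6 had the lowest level of the 6 chains, at 0.0956, 0.124 and 0.0741 FPKM in manipulated and 0.157, 0.112 and 0.112 FPKM in untreated libraries, again with overlap. The ratio of these chains was 3.81 ± 0.90 in manipulated and 3.03 ± 0.201 in untreated libraries (SD, n = 3 each, exact permutation p = 0.2).

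**Figure D4:**
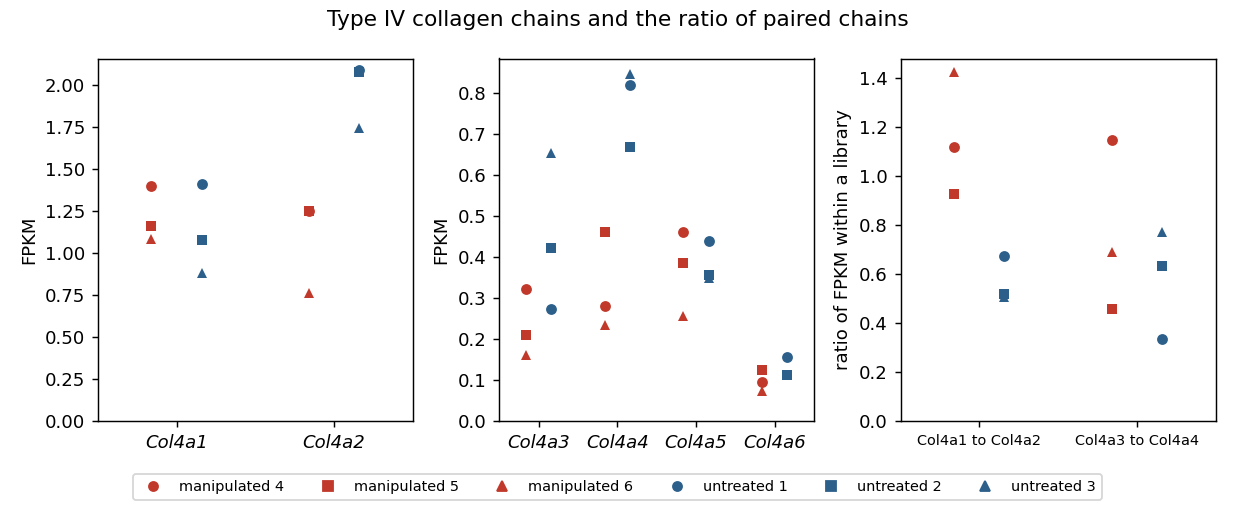
FPKM of Col4a1 and Col4a2 (left) and of the other 4 type IV chains (middle) in each library, and the ratio of paired chains within each library (right), with manipulated libraries in red and untreated ones in blue. The Col4a1 to Col4a2 ratio is 0.927 to 1.43 in manipulated and 0.505 to 0.676 in untreated libraries.

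Multiplexins are collagens of the basement membrane zone whose ends are cut off as small proteins, endostatin in the case of Col18a1. Col18a1 (chr20:12225202-12332858) had 0.946, 1.00 and 0.459 FPKM in manipulated and 1.86, 0.982 and 0.961 FPKM in untreated libraries, with overlap. Col15a1, the other multiplexin, had 0.136, 0.175 and 0.132 FPKM in manipulated and 0.321, 0.220 and 0.327 FPKM in untreated libraries, and its groups did not overlap on either scale. With no filter its adjusted p was 0.340 by limma. The deposited Col15a1 intervals spanned 0 to 3.39 FPKM over the untreated libraries, so its level there is poorly determined.

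Laminins are trimers of an alpha, a beta and a gamma chain. Lamc1, the gamma chain of most laminins, was the most abundant laminin RNA (chr13:70657937-70783647), with 2.71, 2.61 and 1.84 FPKM in manipulated and 3.12, 3.20 and 2.71 FPKM in untreated libraries. The lowest untreated library and the highest manipulated one were almost equal, and the log2 fold change was -0.25 ± 0.21 as deposited and 0.07 after scaling, so its direction depends on the scale. Lamb1 (chr6:50528823-50596079) had 1.30, 1.42 and 0.951 FPKM in manipulated and 2.71, 1.55 and 1.81 FPKM in untreated libraries, apart as deposited (log2 fold change -0.43) and overlapping after scaling (-0.15). Lamb2 (chr8:117268337-117280517), the beta chain of vascular and synaptic laminins, had 1.60, 2.04 and 1.65 FPKM in manipulated and 2.34, 1.61 and 1.37 FPKM in untreated libraries. For Lamb2 the log2 fold change was 0.01, with a 95% interval of -0.52 to 0.53. Its deposited intervals spanned 0 to 35.3 FPKM over the manipulated libraries, so its level there is poorly determined. The adjusted p of the 3 genes by limma was 0.342 to 0.986.

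As a share of the laminin sum, Lamb1 made up 14.9%, 15.7% and 13.5% in manipulated libraries, against 22.1%, 17.5% and 19.8% in untreated libraries. Lamb2 made up 18.3%, 22.5% and 23.3% in manipulated libraries, against 19.1%, 18.2% and 15.0% in untreated libraries. The Lamb1 shares did not overlap between groups and the Lamb2 shares did. Both were picked from a larger set of shares and were not tested. The 4 laminin alpha chains, which carry the sites that bind integrins and dystroglycan, averaged below 1 FPKM. Of these, Lama4, the alpha chain of endothelial laminin, had 0.770, 0.626 and 0.530 FPKM in manipulated and 0.967, 0.715 and 0.997 FPKM in untreated libraries. Lama2, found in astrocyte and muscle basement membranes, had 0.512, 0.754 and 0.381 FPKM in manipulated and 0.757, 0.339 and 0.903 FPKM in untreated libraries. Both overlap between groups.

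Fibril-forming collagens were lower in manipulated libraries in all 8 measured members as deposited, and 7 of the 8 lay wholly below the untreated libraries (20.1 percent of all genes measured above 0 did so). After scaling, 7 of the 8 were below 0 and 4 lay wholly below, beside 9.14 percent. Their sum was 6.94, 6.10 and 5.44 FPKM in manipulated replicates 4, 5 and 6, against 13.1, 9.04 and 9.74 FPKM in untreated replicates 1, 2 and 3. No manipulated library reached the lowest untreated one as deposited, while after scaling the sums were 7.32, 6.14 and 8.41 in manipulated and 9.88, 9.47 and 7.78 in untreated libraries, which overlap. None of the 8 passed the adjusted p, with or without the filter, and this group was singled out after the values were seen.

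Col11a2, a chain of the thin type XI fibrils of cartilage, was the most abundant of them (chr20:3830083-3859220). It had 3.29, 2.88 and 2.21 FPKM in manipulated libraries, against 5.80, 4.46 and 4.43 FPKM in untreated libraries. The groups did not overlap on either scale. The deposited 95% intervals did not meet on the deposited scale and were not compared after scaling. Each interval describes 1 library and not the spread between rats. On the log2 scale the difference was -0.64 ± 0.22 (SE, 95% interval -1.13 to -0.15) with an adjusted p of 0.309 by limma, and it was -0.28 with an adjusted p of 0.445 after median-ratio scaling.

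The type V chains, which start and thin type I fibrils, were lower in level. Col5a2 had 0.583, 0.636 and 0.431 FPKM in manipulated and 1.91, 0.896 and 0.902 FPKM in untreated libraries. Col5a3 had 0.679, 0.762 and 0.543 FPKM in manipulated and 1.51, 0.830 and 0.998 FPKM in untreated libraries. Col5a1 had 0.656, 0.375 and 0.544 FPKM in manipulated and 0.922, 0.704 and 0.704 FPKM in untreated libraries. All 3 type V chains were apart as deposited, and after scaling Col5a2 alone stayed apart. The deposited Col5a3 intervals spanned 0 to 3.70 FPKM over the manipulated and 0 to 39.4 FPKM over the untreated libraries, so its separation is poorly determined. Col2a1, the main collagen of cartilage, had 0.128, 0.111 and 0.112 FPKM in manipulated and 0.239, 0.252 and 0.347 FPKM in untreated libraries. It had the smallest adjusted p of all members in the fit with no filter, 0.279 by limma. The deposited Col2a1 intervals spanned 0 to 0.593 FPKM over the manipulated and 0.0305 to 0.447 FPKM over the untreated libraries, so its separation is poorly determined. Col27a1, a chain of fine cartilage fibrils, was the exception to the separation, at 0.889, 0.707 and 1.01 FPKM in manipulated and 1.22, 1.10 and 0.822 FPKM in untreated libraries. Its log2 fold change was also the 1 of the 8 that was above 0 after scaling, at 0.10.

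The summed FPKM of 9 measured markers of fibroblasts and meninges was 6.17, 12.0 and 7.78 in manipulated and 16.6, 12.1 and 7.81 in untreated libraries, which overlap. For 9 endothelial markers it was 25.6, 27.1 and 15.8 in manipulated and 33.5, 24.6 and 29.8 in untreated libraries, and for 8 mural markers 22.9, 24.2 and 12.2 in manipulated and 29.2, 21.4 and 16.6 in untreated libraries. After scaling the fibroblast and meningeal sums were 6.52, 12.1 and 12.0 in manipulated and 12.5, 12.7 and 6.25 in untreated libraries. The scaled endothelial sums were 27.0, 27.2 and 24.5 in manipulated and 25.3, 25.8 and 23.8 in untreated libraries. The scaled mural sums were 24.2, 24.3 and 18.9 in manipulated and 22.1, 22.4 and 13.2 in untreated libraries. No marker of the 3 lists was at 0 throughout. Their part in the collagen and laminin values was not tested.

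Fibril-associated collagens sit on the surface of other fibrils or bridge them to the surrounding matrix. Col9a3, a type IX chain (chr3:176102351-176124849), had 1.28, 1.86 and 2.43 FPKM in manipulated libraries, against 3.69, 2.96 and 2.70 FPKM in untreated libraries. Its groups did not overlap as deposited and did after scaling, with a log2 fold change of -0.54 ± 0.23 and an adjusted p of 0.326 by limma as deposited, and of -0.20 with an adjusted p of 0.776 after scaling. With weights per library it was the 1 member to pass the adjusted p in any fit (-0.74, adjusted p = 0.0456 by limma), beside 135 higher and 805 lower of all genes in that fit. Col9a2, its partner chain (chr5:139963002-139979864), had 0.663, 1.19 and 0.824 FPKM in manipulated and 1.20, 1.30 and 1.45 FPKM in untreated libraries. Col9a2 was named after its values were seen, as was Col18a1 above.

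Col16a1, which associates with fibrils and with basement membranes (chr5:148257642-148311645), had 1.44, 1.97 and 1.13 FPKM in manipulated and 4.12, 1.83 and 2.68 FPKM in untreated libraries. The groups overlap through manipulated replicate 5 and untreated replicate 2, and the log2 fold change of -0.60 ± 0.27 had an adjusted p of 0.326 by limma. It was -0.29 after scaling, and -0.37 as deposited without untreated replicate 1. Col19a1, which interneurons of the mouse brain make and which is needed there for inhibitory synapses, differed little (chr9:30514517-30865402). It had 0.912, 1.37 and 0.593 FPKM in manipulated and 1.12, 1.05 and 1.31 FPKM in untreated libraries.

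Col20a1, a fibril-associated collagen whose function is little known, was the 1 tested member wholly higher in manipulated libraries on both scales (chr3:176494768-176526018). It had 1.46, 1.14 and 1.49 FPKM in manipulated libraries, against 0.248, 0.938 and 0.951 FPKM in untreated libraries. Its untreated mean of 0.712 FPKM was below the filter, which it passed through its manipulated mean of 1.365 FPKM. Untreated replicate 1 was far below the other untreated libraries, unlike in most members, where it was the highest. The log2 fold change was 0.49 ± 0.29 with an adjusted p of 0.346 by limma, and 0.71 with an adjusted p of 0.411 after scaling. Without untreated replicate 1 it was 0.28 as deposited.

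Col25a1 was the most abundant collagen RNA, with 14.0% of the collagen sum in manipulated and 15.8% in untreated libraries. It encodes a membrane-spanning collagen of neurons whose shed ectodomain is found in amyloid plaques (chr2:235567359-235716401). Its level was 4.43, 3.93 and 2.52 FPKM in manipulated libraries, against 6.22, 7.07 and 4.65 FPKM in untreated libraries. All 3 manipulated libraries were below all 3 untreated ones as deposited, and they overlapped after scaling. The log2 fold change was -0.60 ± 0.25 with an adjusted p of 0.326 by limma as deposited, and -0.24 with an adjusted p of 0.678 after scaling. The deposited interval in manipulated replicate 6 ran from 0 to 162.5 FPKM, so its value there is poorly determined. Col23a1, another membrane-spanning collagen, had 0.205, 0.224 and 0.310 FPKM in manipulated and 0.750, 0.400 and 0.387 FPKM in untreated libraries, apart as deposited and overlapping after scaling.

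Type VI collagen makes beaded filaments near basement membranes. Col6a1 (chr20:12657906-12676343) had 2.57, 1.18 and 1.75 FPKM in manipulated and 4.05, 1.68 and 1.88 FPKM in untreated libraries. Col6a2 had 0.631, 0.716 and 0.529 FPKM in manipulated and 1.16, 0.857 and 0.695 FPKM in untreated libraries. Both overlap between groups, and the Col6a1 log2 fold change was -0.29 as deposited and 0.03 after scaling.

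The short-chain collagens Col8a1 and Col8a2, which form hexagonal lattices under endothelia, had a pattern of their own. Col8a2 had 0.240, 0.987 and 0.815 FPKM in manipulated and 0.630, 0.387 and 0.304 FPKM in untreated libraries. Col8a1 had 0.172, 0.665 and 0.584 FPKM in manipulated and 0.494, 0.256 and 0.149 FPKM in untreated libraries. In both genes manipulated replicates 5 and 6 were the highest of the 6 libraries and manipulated replicate 4 was lower than untreated replicate 1. The summed FPKM of 11 measured choroid plexus markers reached 243, 1253 and 1016 in the manipulated libraries in the same order, against 470, 464 and 472 in untreated libraries, with no marker at 0 throughout, and its part in these values was not tested. After scaling the marker sums were 257, 1260 and 1569 in manipulated and 355, 486 and 377 in untreated libraries. For Col8a1 and Col8a2 the groups overlap, and neither gene was tested in the main fit.

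Among integrin alpha subunits, Itgav had the highest level (chr3:71113409-71205959). It pairs with several beta subunits, binds vitronectin and fibronectin, and with Itgb8 releases active TGF-beta from its latent complex. Its level was 7.97, 6.82 and 4.64 FPKM in manipulated and 12.1, 6.83 and 5.79 FPKM in untreated libraries. Untreated replicate 1 was far above the rest and the other 5 libraries were interleaved. The log2 fold change was -0.27 ± 0.31 as deposited (95% interval -0.97 to 0.43) and 0.13 after scaling.

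The laminin receptors Itga6, Itga3 and Itga7 followed in level. Itga6 (chr3:58443101-58515124), carried by endothelium among others, had 4.99, 2.70 and 1.69 FPKM in manipulated and 3.67, 2.67 and 2.80 FPKM in untreated libraries. Itga3 (chr10:82855613-82887845) had 2.10, 2.23 and 1.64 FPKM in manipulated and 2.42, 1.95 and 2.34 FPKM in untreated libraries. Itga7 (chr7:3355116-3384675), known best from muscle, had 1.21, 2.01 and 3.22 FPKM in manipulated and 1.79, 1.36 and 1.49 FPKM in untreated libraries. In all 3 genes the groups overlap as deposited, and the manipulated libraries spread more widely than the untreated ones, with SDs of 1.69, 0.312 and 1.01 FPKM in manipulated and 0.542, 0.251 and 0.223 FPKM in untreated libraries. The log2 fold changes were -0.04, -0.12 and 0.26 as deposited and 0.29, 0.19 and 0.57 after scaling, with adjusted p of 0.924, 0.704 and 0.530 by limma as deposited. The Itga7 value was 0.024 as deposited without manipulated replicate 6 and -0.10 with weights per library.

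Itgb8, Itgb5 and Itgb1 stood close together as the most abundant beta subunits. Itgb8, a partner of Itgav in astrocytes and neurons (chr6:147089619-147172928), had 6.40, 6.32 and 3.02 FPKM in manipulated and 6.89, 4.12 and 4.53 FPKM in untreated libraries. Itgb5, a vitronectin-binding partner of Itgav (chr11:70056500-70172372), had 5.09, 5.75 and 3.50 FPKM in manipulated and 6.71, 4.16 and 6.13 FPKM in untreated libraries. Itgb1, the partner shared by most matrix-binding alpha subunits (chr19:61677542-61725535), had 5.13, 5.36 and 3.17 FPKM in manipulated and 6.78, 4.70 and 5.04 FPKM in untreated libraries. As deposited, manipulated replicate 6 was the lowest library in all 3 genes, and the groups overlap. After scaling Itgb5 alone of the 3 lay wholly higher in manipulated libraries. The log2 fold changes of -0.01 ± 0.30, -0.21 ± 0.26 and -0.24 ± 0.25 as deposited were 0.36, 0.18 and 0.13 after scaling. The 3 genes held 30.9%, 29.1% and 27.5% of the beta sum in manipulated libraries and 28.5%, 31.5% and 30.7% in untreated libraries. The Itgb1 share was 27.0 to 28.2% in manipulated and 29.6 to 32.6% in untreated libraries, which do not overlap. This share was also picked from a larger set and was not tested.

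Itgam and Itgb2 together form complement receptor 3 of microglia and other myeloid cells. Itgam (chr1:199495298-199623960) had 1.55, 1.42 and 0.774 FPKM in manipulated and 1.16, 1.14 and 1.08 FPKM in untreated libraries. Itgb2 (chr20:11777783-11815647) had 1.34, 1.28 and 0.856 FPKM in manipulated and 1.25, 0.761 and 0.777 FPKM in untreated libraries. Both overlap as deposited, with log2 fold changes of 0.06 and 0.16 (adjusted p of 0.879 and 0.679 by limma), and Itgb2 was apart after scaling at 0.39. The row of the low member Itgax lies within that of Itgam, so their fragments may be hard to separate. As a share of the beta sum, Itgb2 was 7.12%, 6.45% and 7.61% in manipulated libraries, against 5.51%, 5.29% and 4.57% in untreated libraries. The shares do not overlap and do not depend on scaling, but this one was picked from a larger set of shares and was not tested. The summed FPKM of 11 measured microglial markers was 96.3, 117 and 73.0 in manipulated and 149, 109 and 148 in untreated libraries. After scaling it was 102, 117 and 113 in manipulated and 113, 114 and 118 in untreated libraries, which overlap. The sum of 7 blood leukocyte markers was 0.583 to 1.04 in manipulated and 1.90 to 2.43 in untreated libraries. After scaling it was 0.901 to 1.04 in manipulated and 1.56 to 1.99 in untreated libraries. Their part in these integrin values was not tested.

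Of the genes that encode no subunit, Itgb1bp1, whose product ICAP-1 binds the tail of the beta-1 subunit, had 5.00, 4.22 and 4.22 FPKM in manipulated and 6.61, 3.58 and 5.10 FPKM in untreated libraries (chr6:43348929-43363621). Itgb3bp encodes the centromere protein CENP-R and had 1.36, 1.71 and 0.613 FPKM in manipulated and 2.76, 1.94 and 2.20 FPKM in untreated libraries (chr5:118476423-118673914). It was apart on both scales, with a log2 fold change of -0.59 ± 0.27 and an adjusted p of 0.326 by limma as deposited and of -0.33 after scaling, and its row overlaps those of Efcab7 and Ube2u. Itgbl1, a secreted protein with repeats like those of beta integrins, had 2.49, 1.54 and 1.10 FPKM in manipulated and 0.816, 2.56 and 0.996 FPKM in untreated libraries, with overlap (chr15:110114148-110385348), and its row overlaps the end of Fgf14. The remaining one, Itgb1bp2, encodes the muscle protein melusin and averaged 0.0276 FPKM in manipulated and 0.0778 FPKM in untreated libraries.

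The 49 members below the filter averaged 0.009 to 0.958 FPKM and rest on few fragments. In a fit of all 19630 genes above 0 in some library, 75 members had a value and 0 passed the adjusted p, beside 0.102 percent of all genes. Of the 75, 60 were below 0 as deposited, where 80.2 percent of all genes were. At an unadjusted p under 0.05 there were 2 higher (beside 0.942 percent) and 12 lower (beside 11.8 percent). With no filter, 4 members lay wholly higher and 24 wholly lower, beside 1.34 and 20.1 percent, and with median-ratio scaling as well 10 lay wholly higher and 9 wholly lower, beside 8.06 and 9.14 percent. In that fit 0 members passed the adjusted p (beside 0.204 percent of all genes), and at an unadjusted p under 0.05 there were 6 higher (beside 5.08 percent) and 4 lower (beside 5.15 percent). The low members named here and below were chosen after their values were seen.

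Itgb6, an epithelial partner of Itgav that also activates TGF-beta, had the largest ratio upward among low members above 0.1 FPKM (chr3:46652623-46726958). It had 0.410, 0.582 and 0.233 FPKM in manipulated libraries, against 0.138, 0.0719 and 0.0528 FPKM in untreated libraries. The means were 4.66-fold apart and the groups did not overlap on either scale, with an adjusted p of 0.325 by limma with no filter and 0.134 with scaling as well. The deposited intervals of the 2 groups met.

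Of the 23 measured integrin subunits, 4 lay wholly lower in manipulated libraries with no filter, which is near the 20.1 percent of all genes, and 1 of them did after scaling as well. Itga4, a subunit of the leukocyte receptor for VCAM-1, had 0.145, 0.157 and 0.162 FPKM in manipulated libraries, against 0.737, 0.285 and 0.658 FPKM in untreated libraries, apart on both scales (adjusted p = 0.352 by limma with no filter). Its 3 manipulated libraries were close together and its untreated ones were not. Itga11, a receptor for fibrillar collagen, had 0.163, 0.307 and 0.441 FPKM in manipulated and 0.876, 0.563 and 0.761 FPKM in untreated libraries. Itgb7, the other partner of Itga4, had 0.0571, 0.0214 and 0.00563 FPKM in manipulated and 0.112, 0.0877 and 0.0618 FPKM in untreated libraries. Itgb3, the platelet beta subunit that also pairs with Itgav, had 0.0471, 0.106 and 0.0542 FPKM in manipulated and 0.136, 0.134 and 0.181 FPKM in untreated libraries. The last 3 genes were apart as deposited and overlapped after scaling. Over the manipulated libraries the deposited intervals spanned 0 to 12.4 FPKM for Itga11 and 0 to 4.31 FPKM for Itgb3, so these separations are poorly determined.

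**Figure D5:**
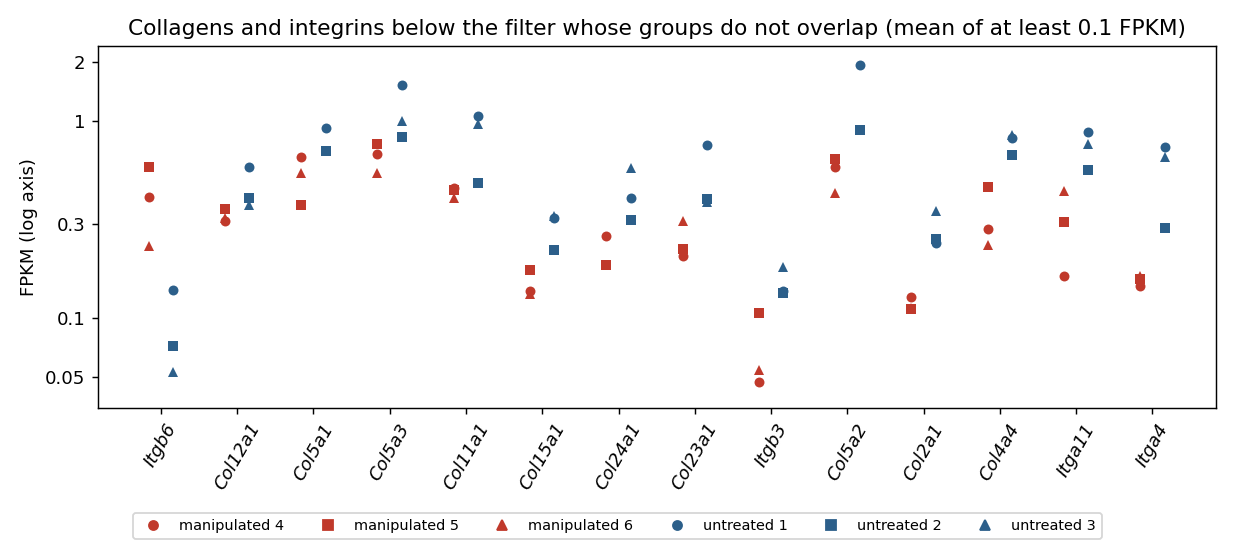
FPKM (log axis) in each library of the 14 collagens and integrins with a mean of 0.1 to 1 FPKM whose groups do not overlap as deposited, ordered by the ratio of group means, with manipulated libraries in red and untreated ones in blue. Itgb6 lies higher in all manipulated libraries and the other 13 lie lower, where 1.34 percent of all genes measured above 0 lay wholly higher and 20.1 percent wholly lower. After median-ratio scaling only Itgb6, Col2a1, Col4a4, Col15a1, Itga4, Col24a1 and Col5a2 of these stay apart.

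Genes that work with these proteins gave no call either, by limma with Benjamini-Hochberg adjustment over all genes. Of 7 tested genes of the basement membrane and interstitial matrix, 0 passed in either direction and 7 were below 0 as deposited, with a median of -0.19 and of 0.09 after scaling. The collagen-binding Sparc averaged 53.1 ± 13.0 FPKM in manipulated and 85.4 ± 9.83 FPKM in untreated libraries (SD, n = 3 each, adjusted p = 0.326 by limma). Its relative Sparcl1 averaged 141 ± 40.0 FPKM in manipulated and 211 ± 38.8 FPKM in untreated libraries (SD, n = 3 each, adjusted p = 0.333 by limma). Of 11 tested genes of collagen processing 0 passed, with a median of -0.27 as deposited and 0.07 after scaling. In that list Sec23a, which coats the vesicles that carry procollagen, averaged 6.88 ± 1.73 FPKM in manipulated and 11.4 ± 2.31 FPKM in untreated libraries. P4ha1, a prolyl hydroxylase subunit, averaged 4.42 ± 0.689 FPKM in manipulated and 6.89 ± 2.33 FPKM in untreated libraries. Their adjusted p by limma was 0.326 and 0.333.

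Of 10 tested genes of matrix breakdown 0 passed, with a median of -0.28 as deposited and 0.04 after scaling. Ctsk, a protease that cuts collagen, averaged 1.28 ± 0.374 FPKM in manipulated and 2.10 ± 0.306 FPKM in untreated libraries, with an adjusted p of 0.333 by limma. Timp4, an inhibitor of metalloproteinases, was listed at 0 in the 3 manipulated libraries and at 6.64, 0 and 0 FPKM in untreated replicates 1, 2 and 3. Of 20 tested genes of integrin adhesion 0 passed and 19 were below 0 as deposited, with a median of -0.35 and of 0.03 after scaling. Cd47, a membrane protein that associates with integrins, averaged 12.4 ± 6.36 FPKM in manipulated and 27.3 ± 4.69 FPKM in untreated libraries, with a log2 fold change of -1.18 ± 0.37 and an adjusted p of 0.309 by limma. Zyx, a focal adhesion protein, averaged 3.11 ± 0.398 FPKM in manipulated and 4.92 ± 0.534 FPKM in untreated libraries (adjusted p = 0.326 by limma). Of 12 tested genes for other matrix receptors 0 passed, with a median of -0.25 as deposited and 0.09 after scaling. Among them Sdc4, a heparan sulphate proteoglycan of adhesions, averaged 8.02 ± 2.18 FPKM in manipulated and 12.5 ± 2.43 FPKM in untreated libraries. Sgce, a sarcoglycan, averaged 2.97 ± 0.829 FPKM in manipulated and 4.31 ± 0.854 FPKM in untreated libraries (SD, n = 3 each). Median-ratio scaling brought the log2 fold changes of these genes nearer to 0. For Sparc it was -0.70 as deposited and -0.25 after scaling, for Sparcl1 -0.61 and -0.15, for Sec23a -0.66 and -0.25, and for P4ha1 -0.51 and -0.12. For Ctsk it was -0.45 as deposited and -0.18 after scaling, for Cd47 -1.18 and -0.75, for Zyx -0.53 and -0.17, for Sdc4 -0.60 and -0.19, and for Sgce -0.43 and -0.079.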

How the data were processed

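The sources used here do not say how RNA was selected, whether libraries keep strand, how many reads were made or which annotation was used. The deposited values are FPKM per gene in 1 table per library, with an interval and a status, per the file headers. STAR 2.7.3a, Cufflinks and the build Rnor_6.0 are named in the submitters' processing notes. FPKM is scaled within a library, so abundant transcripts lower all others. Each library was assembled on its own, so neighbouring genes can be joined in some libraries, and without strand, overlapping genes cannot be told apart.

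Rows of a symbol were summed. Of 30076 symbols, 3254 sharing a row, 144 at several places, 32 missing from a library and 7 with a failed estimate were left out. Of the 26641 kept, 10657 that averaged 1 FPKM or more entered limma 3.58.1 (R 4.3.3) on log2(FPKM + 1), two-sided, with a mean-variance trend and without covariates. P-values were adjusted over all of these genes by Benjamini-Hochberg at 0.05. A log2 fold change is the manipulated minus the untreated mean, and it understates low genes. Simulated data with known changes gave 4.8 false calls on average in 5 simulations. P-values measure the spread between these 6 rats, 3 a group. Coordinates count from 1.

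Depth was estimated from interval widths of unnamed loci and is no read total. The members and lists were chosen with earlier results of these data known. Named are the most abundant tested members of each family (8 collagens, up to 5 laminins, 6 alpha and 4 beta subunits), the 8 with the smallest p, those that encode no subunit, and 2 of each partner list. Sequences are RefSeq GRCr8, where 63 members had an entry, and no coordinates were converted. The values of 1 member are not reported here. Python 3.11.15 with pandas 2.3.3, numpy 2.4.6, scipy 1.17.1 and matplotlib 3.10.9 made tables and figures. Alternatives covered the pseudocount (0.1), the filter, median-ratio scaling, a robust variance prior, weights per library and leaving out each library.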

Additional observations from a re-analysis of the deposited data

How the results depend on the processing

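No paired analysis was possible because the animal numbers differ between the groups and the labels give no batch or pairing. The count of members past the adjusted p by limma was 0 in each direction under every alternative run except weights per library, where 1 was lower (Col9a3, -0.74). Over all genes the calls, 9 higher and 29 lower, were 5 and 15 with no filter, 17 and 67 with a robust variance prior, 135 and 805 with weights per library, and 9 to 18 and 17 to 38 when 1 library was left out. Tested members lower and higher, 19 and 7, were 9 and 17 with median-ratio scaling, 60 and 15 with no filter, and 36 and 39 with both. Their median of -0.22 was 0.13 with median-ratio scaling, 0.0052 with no filter and scaling together, and -0.31 to -0.064 when 1 library was left out, the last without manipulated replicate 6. Members wholly higher, 1 (beside 1.08 percent of all tested genes), were 5 with scaling (beside 10.0 percent). They were 1 to 3 when 1 library was left out, beside 1.63 to 4.37 percent. Members wholly lower, 8 (beside 23.7 percent), were 3 with scaling (beside 9.85 percent). They were 8 to 12 when 1 library was left out, beside 25.0 to 57.7 percent.

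Of 288 values for 24 named members, 251 kept their direction and side of the threshold and 36 reversed. With median-ratio scaling, with or without the filter, these were Col6a1 (0.034), Itga3 (0.19), Itga6 (0.29), Itgav (0.13), Itgb1 (0.13), Itgb1bp1 (0.26), Itgb5 (0.18), Itgb8 (0.36) and Lamc1 (0.071). With weights per library they were Itga6 (0.42), Itga7 (-0.10), Itgav (0.047) and Itgb8 (0.26). Leaving out 1 library gave ranges across 0 for Col4a1 (-0.018 to 0.16), Itga6 (-0.35 to 0.23), Itgam (-0.042 to 0.22), Itgav (-0.46 to 0.0098), Itgb1bp1 (-0.32 to 0.049), Itgb8 (-0.16 to 0.28), Itgbl1 (-0.020 to 0.48) and Lamb2 (-0.10 to 0.15). Scaling divides by size factors of 0.647 to 1.32, which moves all genes together, and the cause of the other changes was not tested. The fit with no filter and scaling together, the leave-one-out counts of members that lie apart, and the chain ratio without manipulated replicate 6 were added after seeing the data. With 3 libraries a group, differences under 1 on the log2 scale are mostly not detectable, and members below 1 FPKM rest on few fragments.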

Other observations

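Collagen and integrin genes that shared a row with a neighbour were not compared between groups. Col1a1, a chain of type I collagen, stood alone at 0.267, 0.408 and 0.399 FPKM in manipulated replicates 4, 5 and 6 and at 0.898 FPKM in untreated replicate 1. In untreated replicates 2 and 3 it was joined with Ppp1r9b in rows of 49.7 and 51.6 FPKM. Col3a1, the type III collagen chain that accompanies type I in vessel walls, shared its row in all 6 libraries, with 0.257, 0.421 and 0.383 FPKM in manipulated and 0.889, 0.495 and 0.375 FPKM in untreated libraries. Itga2b, the platelet alpha subunit, had 0.195, 0.295 and 0.248 FPKM in manipulated libraries and 1.04 and 0.923 FPKM in untreated replicates 1 and 2, and in untreated replicate 3 it was joined with Ubtf at 9.76 FPKM. Itga10, a collagen receptor of cartilage, was joined with Ankrd35 in manipulated replicate 5, and elsewhere had 0.0441 and 0.0174 FPKM in manipulated replicates 4 and 6 and 0.0546, 0.0290 and 0.00707 FPKM in untreated libraries. Col17a1, a collagen of skin hemidesmosomes, was joined in manipulated replicate 6 and untreated replicate 1, while manipulated replicates 4 and 5 held 0.0510 and 0.0578 FPKM, against 0.0643 and 0.0523 FPKM in untreated replicates 2 and 3. Col7a1, the anchoring fibril collagen of skin, shared its row with Mir711 in all 6 libraries, with 0.0634, 0.0615 and 0.191 FPKM in manipulated and 0.0723, 0.0470 and 0.104 FPKM in untreated libraries. Itgax, a myeloid alpha subunit, averaged 0.0201 FPKM in manipulated and 0.00528 FPKM in untreated libraries, close to no signal.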
